A study of Mus musculus with 8 samples.

Results

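Small nucleolar RNAs (snoRNAs) are short noncoding RNAs of the nucleolus, and 63 of their genes were followed here over 8 mouse B cell arrays. The genes are all those with a probe set of 1 gene symbol that begins with Snord or Snora and a digit. They fall into 42 box C/D genes (Snord) and 21 box H/ACA genes (Snora), out of 21515 gene symbols on the arrays, measured by 22207 probe sets with 1 symbol that were tested. Members were chosen by symbol and by no measured value, but the family was taken up with the group differences of its levels on these arrays known. Counts and changes of its members are therefore a description and carry no test.

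The arrays held splenic B cells isolated by CD43 depletion, in 4 groups of 2 biological replicates. The naive control came from male C57BL6 mice (B6/J) and its RNA was taken directly, without culture. The CD40-activated group came from the same strain and sex after 2 days with anti-CD40, an antibody that engages the receptor through which helper T cells activate B cells. The YFP control (YFPflSTOP/+) and the LMP1 group (LMP1flSTOP/YFPflSTOP) came from female F1 mice of C57BL6 and BALBc. Cells of both these groups were given TAT-Cre, a protein that enters cells and removes the STOP cassettes, and the cells positive for the YFP reporter were sorted after 2 days. LMP1 is a membrane protein of Epstein-Barr virus that signals without a ligand and resembles an active CD40 receptor. The YFP and LMP1 arrays are re-analysed from an earlier series. Between them and the other 4 arrays, strain, sex, TAT-Cre, the sort and the series cannot be told apart, and culture itself differs between the naive control and each of the other groups.

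Box C/D snoRNAs pair with ribosomal RNA and direct 2′-O-methylation by fibrillarin, within a particle that also holds Nop56, Nop58 and Snu13. Box H/ACA snoRNAs direct pseudouridylation by dyskerin (Dkc1), within a particle that also holds Nhp2, Gar1 and Nop10. Most vertebrate snoRNAs lie within introns of host genes, many of which make ribosomal or nucleolar proteins, and are trimmed out of the intron after splicing. The snoRNA persists in its particle after the intron is gone, so its level is set apart from that of the spliced host RNA. The authors' deposited values are log2 levels, so a difference of 1 is a doubling, and levels are compared here within a gene only.

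The RefSeq genes of the members were short, 48 to 221 bases for box C/D (median 68) and 56 to 205 bases for box H/ACA (median 117). A pair of the box H/ACA genes overlap annotated miRNA hairpins, and these are shown because a probe set of the snoRNA could also read the hairpin's RNA where both share bases. RNA letters are RefSeq's on build GRCm38.p6, and capitals mark the bases that lie within the snoRNA gene. The Mir3084-2 hairpin at chr19:60774329-60774397 on the minus strand has 69 bases, of which 56, bases 13 to 68, lie within Snora19. The Mir1291 hairpin at chr15:98519762-98519878 on the minus strand has 117 bases, of which the last 73 lie within Snora34.
Mir3084-2: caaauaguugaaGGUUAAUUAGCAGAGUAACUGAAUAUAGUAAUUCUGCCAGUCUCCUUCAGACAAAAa
Mir1291: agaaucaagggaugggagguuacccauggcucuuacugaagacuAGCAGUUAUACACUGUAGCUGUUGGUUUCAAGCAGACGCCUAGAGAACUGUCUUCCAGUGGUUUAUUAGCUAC
The mature miRNAs follow with the seed (bases 2 to 8) in capitals, and no seed is shared among them. All 21 bases of miR-3084-3p and 16 of the 22 of miR-3084-5p lie within Snora19, but 7 of the 26 of miR-1291, its seed not included, lie within Snora34.
miR-3084-5p: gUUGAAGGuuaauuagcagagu
miR-3084-3p: uUCUGCCAgucuccuucagac
miR-1291: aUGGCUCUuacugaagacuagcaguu
Snora34, in the gene Kansl2 of a histone acetyltransferase complex, was at 12.19 and 12.27 on the naive arrays, 11.79 and 11.81 on the CD40-activated arrays, 10.03 and 8.89 on the YFP control arrays and 9.64 and 9.72 in LMP1 cells. Snora19, in the translation initiation gene Eif3a, was at 6.40 and 6.21, 6.13 and 6.62, 4.61 and 4.54, and 5.22 and 5.29 on the arrays in the same order. Both were lower on all 4 arrays of the YFP and LMP1 set than on all 4 arrays of the other set. Neither hairpin has a single-symbol probe set of its own here, so the snoRNA and the miRNA precursor were not measured apart. The Mir3084-2 hairpin is also annotated elsewhere as Mir3084-1, and signal from that copy was not told apart either.

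Across the family the naive arrays stood highest. Both naive arrays lay above the other 6 arrays for 48 of the 63 genes (33 of 42 box C/D and 15 of 21 box H/ACA), where 13.8% of all probe sets did so. In 37 genes the naive arrays lay above the CD40-activated arrays and these above all 4 YFP and LMP1 arrays, without overlap. The share of all probe sets with this order was not counted, so the 37 cannot be set against it. The median level of box C/D genes was 11.42 and 11.37 on the naive arrays, 9.97 and 10.39 on the CD40-activated arrays, 8.48 and 7.98 on the YFP control arrays and 8.52 and 8.43 in LMP1 cells. That of box H/ACA genes was 11.19 and 11.27, 9.18 and 9.38, 8.52 and 8.04, and 8.52 and 8.62 in the same order. Both classes thus showed the same order of groups down to the CD40-activated cells, and the YFP and LMP1 medians lay close together. Over all probe sets tested the array medians stayed between 5.57 and 5.73.

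**Figure D1:**
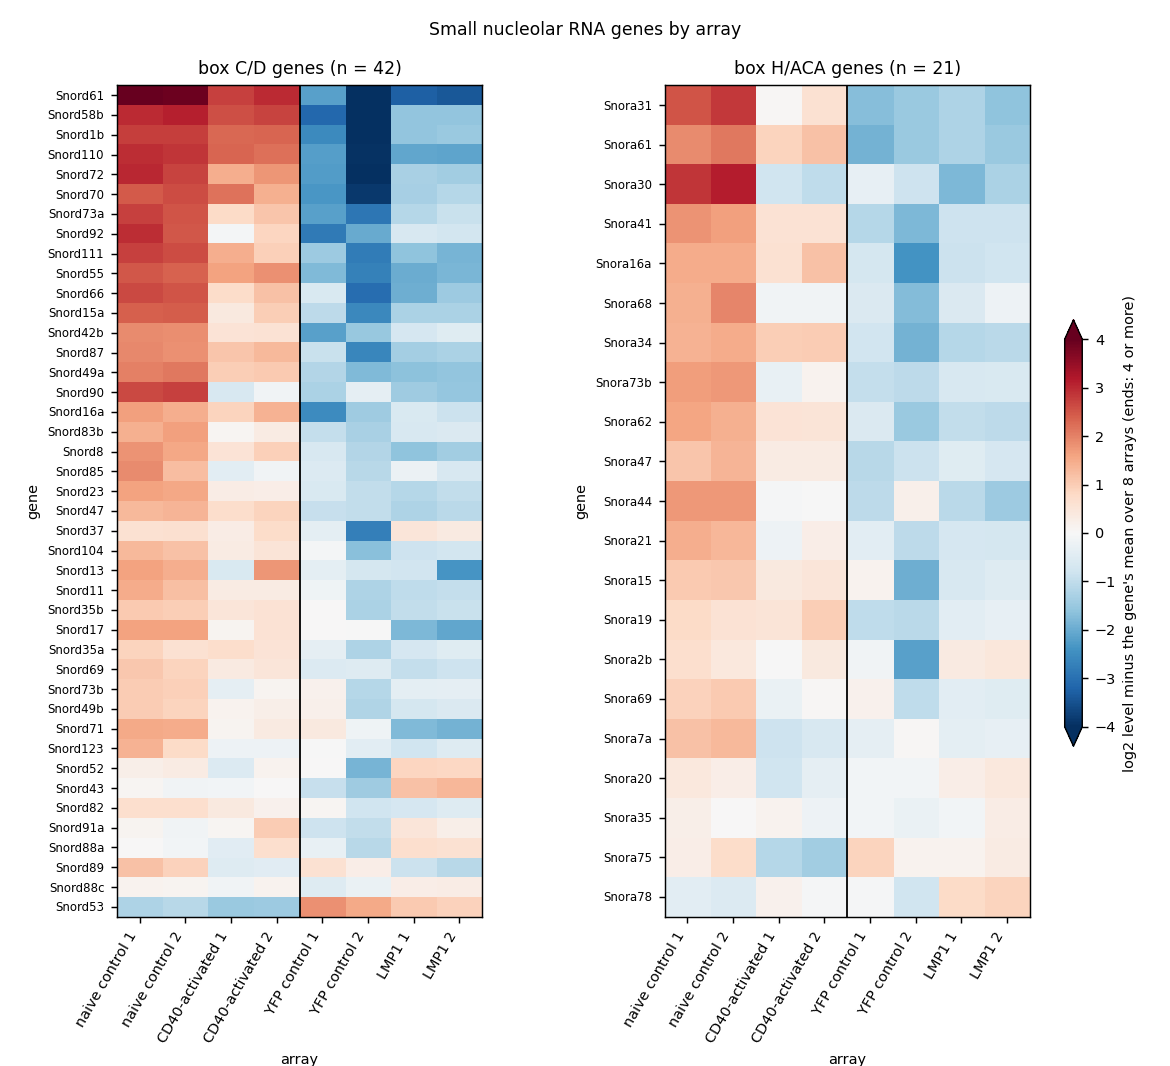
Each row is a snoRNA gene (42 box C/D left, 21 box H/ACA right) and each column an array; colour gives the log2 level minus that gene's mean over the 8 arrays, and values beyond 4 share the end colour. Rows run from the most negative YFP control minus naive difference down. Red stands on the naive arrays in most rows, the second YFP control array is the darkest blue for several box C/D genes at the top, and Snord53 in the last row of box C/D runs the other way.

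One array departed from its replicate. On the second YFP control array 52 of the 63 genes were lower than on the first, 23 of them (36.5%) by more than 1, against 3.08% of all probe sets. The median gap between both YFP arrays was 0.77 for box C/D and 0.63 for box H/ACA genes, while over all probe sets it was -0.06. In each of the other 3 groups at most 2 genes differed by more than 1 between replicates, namely Snord13 on the LMP1 arrays and Snord13 and Snord88a on the CD40-activated arrays. Class counts and medians that rest on the YFP control are given with and without its second array, and so are the named changes it moved most.

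The comparison of the YFP control with the naive control sets cultured, TAT-Cre-treated and sorted cells without LMP1 against cells taken directly. Of the 42 box C/D genes, 35 were called lower and 1 higher, and of the 21 box H/ACA genes 17 were called lower and none higher. A call is an adjusted p under 0.05 in limma over all 22207 probe sets, of which 18.7% were called in this comparison (10.9% higher and 7.8% lower). The median change was -2.32 for box C/D and -2.17 for box H/ACA genes, where that of all probe sets was 0. Without the second YFP array the medians were -2.15 and -2.10. In 60 of the 63 genes both YFP arrays lay below both naive arrays, as for 25.5% of all probe sets, and in 1 gene above them (27.3% of all probe sets).

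**Figure D2:**
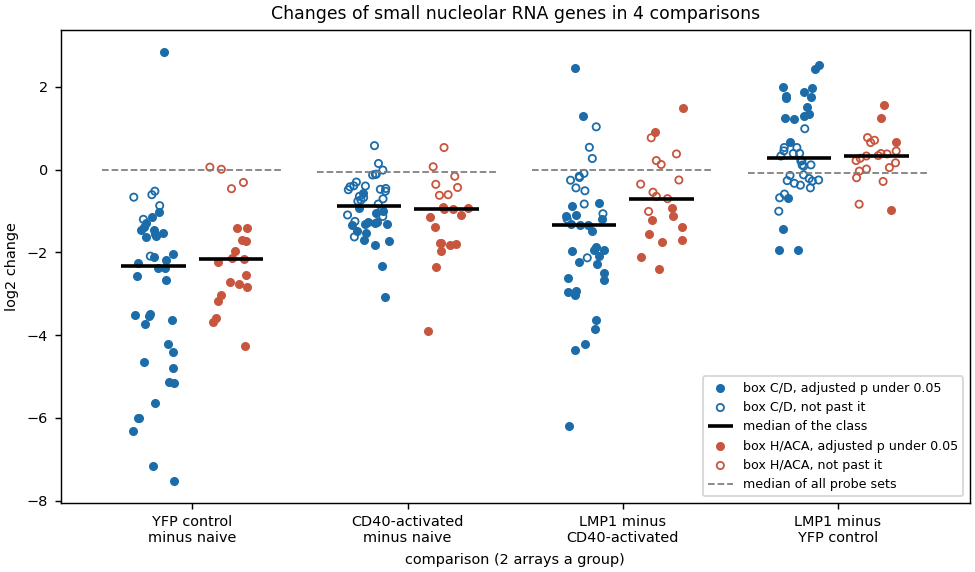
Each point is a snoRNA gene, with its log2 change on the vertical axis in 4 comparisons of 2 arrays against 2; filled points were called at an adjusted p under 0.05, black bars are the medians of 42 box C/D (blue) and 21 box H/ACA (red) genes, and dashed lines the median of all probe sets. The YFP control minus naive column reaches down to -7.53 for Snord61, and the LMP1 minus YFP control column is the one with medians above 0, at 0.27 and 0.33.

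The lowest changes in that comparison belonged to box C/D genes of 53 to 77 bases. Snord61, catalogued in human as a guide to small-subunit ribosomal RNA, was at 12.54 and 12.42 on the naive arrays, 11.23 and 11.47 after anti-CD40, 6.32 and 3.59 in the YFP control and 5.22 and 5.11 in LMP1 cells. Snord58b, of a family of guides to large-subunit ribosomal RNA, was at 11.65 and 11.79, 11.24 and 11.37, 5.52 and 3.59, and 7.08 and 7.10 in that order. Snord1b, within the long noncoding gene Snhg16, was at 10.91 and 10.90, 10.44 and 10.46, 5.57 and 3.60, and 6.54 and 6.64. In all 3 genes the naive and CD40-activated arrays stood within 1.5 of each other, and the YFP and LMP1 arrays lay several units beneath them. YFP control minus naive was -7.53 ± 0.64 (SE of the fit, n = 2 arrays a group) for Snord61, -7.17 ± 0.46 for Snord58b and -6.32 ± 0.47 for Snord1b. Without the second YFP array the differences were -6.16, -6.2 and -5.34. On that array all 3 genes lay below the median of all probe sets, 5.72, where signal is dim and the size of a change is less certain. Snord58b and Snord1b also lay below the median of the first YFP array, 5.61. Snord61 lay below those of both LMP1 arrays, 5.58 and 5.60.

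Snord110, in the core protein gene Nop56, was at 12.79 and 12.69 on the naive arrays, 12.15 and 12.04 on the CD40-activated, 7.62 and 5.87 on the YFP control and 7.74 and 7.73 in LMP1 cells. Snord72, in the ribosomal protein gene Rpl37, was at 10.72 and 10.43, 9.18 and 9.47, 5.48 and 3.69, and 6.43 and 6.31. Snord70, in the core protein gene Nop58, was at 9.89 and 10.03, 9.60 and 8.85, 5.10 and 3.56, and 6.11 and 6.30. These 3 had the pattern of the genes above, and changes of -6.00, -5.99 and -5.63 against the naive control (-5.12, -5.10 and -4.86 without the second YFP array). For 22 of the 63 genes (17 box C/D, 5 box H/ACA) the difference was below -3. The share of all probe sets below -3 was not counted, so the 22 cannot be set against it.

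Snord53 was the one gene called higher in the YFP control than in the naive control. It was at 8.68 and 8.82 on the naive arrays, 8.44 and 8.46 on the CD40-activated, 11.75 and 11.45 on the YFP control and 10.98 and 10.84 in LMP1 cells, a YFP control minus naive difference of 2.85 ± 0.17 (3.0 without the second YFP array). All 4 arrays of the YFP and LMP1 set lay more than 2 above all arrays of the other set. Snora75 (0.01) and Snora78 (0.06) were the other 2 of the 63 genes whose change was not below 0.

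Anti-CD40 for 2 days was compared with the naive control of the same strain and sex. Of the box C/D genes 17 of 42 were called lower and none higher, and of the box H/ACA genes 14 of 21 lower and none higher, where 17.5% of all probe sets were called (10.9% higher and 6.59% lower). The median change was -0.88 for box C/D and -0.96 for box H/ACA genes, and -0.05 for all probe sets. CD40-activated arrays lay below naive arrays without overlap for 53 of the 63 genes, as for 31.1% of all probe sets, and above them for 1 gene, Snora78 (28.4% of all probe sets). Over all settings, including those with 1 array left out, the median stayed between -0.96 and -0.74 for box C/D and between -1.17 and -0.86 for box H/ACA genes. The number of members called moved with the array left out, and so did the share of all probe sets called.

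Snora30 had the lowest value in this comparison and lies in Srcap, a chromatin remodeller gene. It was at 11.80 and 12.08 on the naive arrays and at 8.14 and 7.93 on the CD40-activated arrays, 8.61 and 8.11 in the YFP control and 7.13 and 7.65 in LMP1 cells. The CD40-activated arrays lay among the YFP and LMP1 arrays, unlike those of Snord61 and Snord58b, and CD40-activated minus naive was -3.91 ± 0.24. Snord90, catalogued in human as a guide to small-subunit ribosomal RNA and held by the RNA-binding gene Rc3h2, was at 9.48 and 9.58 on the naive, 6.19 and 6.70 on the CD40-activated, 5.57 and 6.48 on the YFP control and 5.40 and 5.29 in LMP1 cells. Snora31, in the growth-related gene Tpt1, was at 10.98 and 11.27, 8.49 and 9.06, 6.76 and 6.98, and 7.22 and 6.85. Naive arrays stood more than 1.9 above every other array for each of the 3. The changes after anti-CD40 were -3.09 for Snord90 and -2.35 for Snora31.

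Snord92 was at 9.79 and 9.31 on the naive arrays, 6.76 and 7.68 on the CD40-activated, 4.02 and 4.81 on the YFP control and 6.21 and 6.10 in LMP1 cells. Snora7a, in the ribosomal protein gene Rpl32, was at 11.19 and 11.32, 9.18 and 9.38, 9.65 and 10.06, and 9.62 and 9.70. Snord85, catalogued in human as a guide to large-subunit ribosomal RNA, was at 7.70 and 7.04, 5.40 and 5.68, 5.26 and 4.71, and 5.59 and 5.17. For Snora7a the CD40-activated arrays were the lowest of all 8, whereas for Snord92 the YFP control arrays were. CD40-activated minus naive was -2.33 for Snord92, -1.98 for Snora7a and -1.83 for Snord85.

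The naive arrays also carried more signal of T cell, erythroid and NK cell markers. The mean level of 5 T cell markers (of 6 listed) was 8.64 and 8.47 on the naive arrays and between 5.26 and 5.88 on the other 6, and all 5 were called lower in the CD40-activated group and in the YFP control. Both measured erythroid markers (of 6 listed) averaged 10.59 and 8.94 on the naive arrays against 5.27 to 5.91 elsewhere, and 3 NK cell markers 6.37 and 5.69 against 3.49 to 4.16. The 7 measured B cell markers (of 8) averaged 11.2 to 11.7 on the naive, CD40-activated and YFP control arrays. The 5 monocyte and macrophage markers averaged 6.10 and 5.48 on the naive arrays, 5.48 and 5.82 on the YFP control arrays and 4.59 to 4.80 on the other 4, and the 5 neutrophil markers 4.41 to 5.04 on all 8. The part of these other cells in the lower snoRNA levels was not tested. In bulk RNA, fewer cells of a type and less RNA per cell cannot be told apart.

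LMP1 cells were set against the YFP control, which shares strain, sex, TAT-Cre and sort. Here the family did not move one way. The B cell markers averaged 10.5 and 10.54 on the LMP1 arrays, below the other 6, and 5 of 7 were called lower than in the YFP control (median -0.85) and 4 of 7 lower than in CD40-activated cells. Adgre1 (-2.02) and Lyz2 (-1.91) of the macrophage and Cd3g (-1.13) of the T cell markers were also called lower than in the YFP control; their part in the snoRNA values was not tested. Box C/D genes were called higher in 14 and lower in 4 of 42 cases and box H/ACA genes higher in 3 and lower in 1 of 21, where 23.0% of all probe sets were called (14.8% higher and 8.29% lower). The median change was 0.27 for box C/D and 0.33 for box H/ACA genes, beside -0.08 for all probe sets. LMP1 arrays lay above YFP arrays without overlap for 24 of the 63 genes (27.5% of all probe sets) and below them for 12 (33.7%). The split depended on the YFP arrays. Without the second, 12 box C/D genes were called higher and 12 lower with a median of -0.24, and without the first 25 higher and 5 lower with a median of 0.73. For box H/ACA genes 1 was called higher and 3 lower without the second YFP array, and 8 higher and 1 lower without the first. Without either LMP1 array 9 box C/D genes were called (6 higher and 3 lower), and 1 and 2 box H/ACA genes. With the 4 arrays of this set quantile-normalized on their own, 10 box C/D genes were called higher and 7 lower, with a median of 0.08.

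The genes called lower in LMP1 cells included 3 box C/D genes with changes below -1. Snord71, catalogued in human as a guide to 5.8S ribosomal RNA, was at 10.38 and 9.82 in the YFP control and 8.21 and 8.09 in LMP1 cells, beside 11.51 and 11.46 in naive and 10.10 and 10.35 in CD40-activated cells. Snord17, the longest box C/D member at 221 bases, was at 11.26 and 11.23 in the YFP control and 9.45 and 9.18 in LMP1 cells, beside 12.87 and 12.85, and 11.37 and 11.83. Snord89 was at 10.29 and 9.96 in the YFP control and 8.83 and 8.57 in LMP1 cells. For all 3 the LMP1 arrays were the lowest of the 8. LMP1 minus YFP control was -1.95 ± 0.21 for Snord71, -1.93 ± 0.19 for Snord17 and -1.43 ± 0.19 for Snord89. Snora30 (-0.97) and Snord53 (-0.69) were the other 2 called lower.

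Snord43, in the ribosomal protein gene Rpl3, was at 6.71 and 6.21 in the YFP control, 8.83 and 8.96 in LMP1 cells, 7.73 and 7.5 in naive and 7.54 and 7.67 in CD40-activated cells. Its LMP1 arrays were the highest of the 8, and LMP1 minus YFP control was 2.44 ± 0.20. The other 5 named genes called higher, Snord58b (2.54), Snord1b (2.01), Snord37 (1.99), Snord70 (1.88) and Snord72 (1.79), had YFP control replicates 1.5 or more apart. Without the second YFP array the changes were 1.57 for Snord58b, 1.02 for Snord1b, 0.82 for Snord37, 1.11 for Snord70 and 0.89 for Snord72. Snord37, in the elongation factor gene Eef2, showed this most plainly, at 6.06 and 3.73 in the YFP control and 6.95 and 6.81 in LMP1 cells, beside 7.07 and 7.09, and 6.76 and 7.18. Its call was lost without any 1 of the 6 arrays of the other groups. Among box C/D genes longer ones had the lower change (Pearson r = -0.45, Spearman rho = -0.45, n = 42 genes on the same arrays, as a description).

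LMP1 and CD40-activated cells differ also in strain, sex and handling, so their difference joins all of these. Of the box C/D genes 27 were called lower and 2 higher in LMP1 cells, and of the box H/ACA genes 9 lower and 2 higher, where 14.8% of all probe sets were called (9.48% higher and 5.29% lower). The median difference was -1.34 for box C/D and -0.70 for box H/ACA genes and 0 for all probe sets. LMP1 arrays lay below CD40-activated arrays without overlap for 48 of the 63 genes (30.4% of all probe sets) and above them for 8 (32.3%). The box C/D count was 19 without the second CD40-activated array. The box H/ACA count was 7 without the second LMP1 array, 7 without the first CD40-activated array and 6 without the second. The lowest differences, from the values above, were those of Snord61 (-6.19), Snord110 (-4.36), Snord58b (-4.22), Snord1b (-3.86) and Snord70 (-3.02). Snord55, also catalogued in human as a guide to large-subunit ribosomal RNA, joined them with 13.46 and 13.31 on the naive, 12.56 and 12.80 on the CD40-activated, 9.20 and 8.25 on the YFP control and 8.98 and 9.13 in LMP1 cells, a difference of -3.63.

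The 4 genes called higher in LMP1 than in CD40-activated cells were Snord53 (2.46), Snora75 (1.495), Snord43 (1.29) and Snora20 (0.92). Snora75, in the nucleolin gene Ncl, was at 9.97 and 9.73 in CD40-activated and 11.24 and 11.45 in LMP1 cells, beside 11.38 and 11.86 in naive and 12.00 and 11.26 in YFP control cells. Snora20, in the chaperonin gene Tcp1, was at 6.5 and 6.93 in CD40-activated and 7.55 and 7.72 in LMP1 cells, beside 7.73 and 7.56, and 7.19 and 7.18. For both genes the CD40-activated arrays were the lowest of all 8.

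The LMP1 response (LMP1 minus YFP control) was set against the CD40 response (CD40-activated minus naive) in the same fit. The difference was called above 0 for 12 box C/D and 11 box H/ACA genes and below 0 for none, where 8.29% of all probe sets were called (4.18% above and 4.12% below). All 21 box H/ACA and 38 of 42 box C/D genes had a value above 0, with medians of 1.32 and 1.17 against 0.03 over all probe sets. Between 6 and 28 box C/D genes and between 5 and 18 box H/ACA genes were called when 1 array was left out. The upper counts came without the first YFP array; without the second YFP array they were 17 (16 above 0 and 1 below) and 11. The counts were 6 and 5 without the first CD40-activated array, 7 and 6 without the second, 7 and 6 without the first LMP1 array, 7 and 5 without the second, 7 and 10 without the first naive array and 8 and 8 without the second. The naive and the YFP control cells differ in culture, so this difference sets a step from uncultured to cultured cells against one between 2 cultured groups. Snord92 had the highest value, 4.07 ± 0.47.

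A few snoRNAs were listed for a part in processing of the ribosomal RNA precursor, and 2 of 11 listed had a probe set. Snora73b (U17), in the long noncoding gene Snhg3, was at 12.17 and 12.22 on the naive, 10.20 and 10.62 on the CD40-activated, 9.54 and 9.43 on the YFP control and 9.84 and 9.89 in LMP1 cells. Snord13 (U13), transcribed from its own gene, was at 12.15 and 12.00, 9.93 and 12.29, 10.14 and 9.83, and 9.78 and 8.18. Snora73b followed the order of the family with close replicates, and its changes were -1.79 after anti-CD40, -2.71 in the YFP control and 0.38 between LMP1 and YFP control. Snord13 differed by 2.36 between the CD40-activated replicates and was called in none of the 4 comparisons. Of the large imprinted snoRNA clusters listed, no gene was measured here. Snora35, in the serotonin receptor gene Htr2c of neurons, was at 4.64 to 5.19 on all 8 arrays.

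Host genes and snoRNAs were compared next. For 42 of the 63 snoRNA genes a single spanning gene with a probe set of its own was found, 32 hosts in all. After anti-CD40, 14 of the 32 hosts were called higher and none lower, with a median of 0.51, against 17.5% of all probe sets called. In LMP1 cells 17 were called higher and 2 lower than in the YFP control, with a median of 0.90, against 23.0%. In the YFP control 5 were called higher and 4 lower than in the naive control, with a median of -0.06, against 18.7%, and between LMP1 and CD40-activated cells 8 were called higher and 2 lower, against 14.8%. The host count after anti-CD40 was 5 to 11 without any 1 LMP1, naive or CD40-activated array and 20 without either YFP array. That of LMP1 against CD40-activated cells was 2 to 4 without any 1 LMP1 or CD40-activated array and 15 without either YFP array. That of the YFP control against the naive control was 14 (3 higher and 11 lower) without the first YFP array, 10 (7 higher and 3 lower) without the second and 5 without the second naive array.

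Pair by pair, most snoRNA genes were lower and most of their hosts higher after anti-CD40. The snoRNA change was below that of its host in 41 of 42 pairs, and below 0 beside a host above 0 in 36 pairs, with medians of -0.96 and 0.51. In 9 pairs the snoRNA was called lower and the host higher. Against the naive control the YFP control gave 40 of 42 pairs with the snoRNA below the host (medians -2.20 and -0.12), and LMP1 against YFP control 32 of 42 (medians 0.34 and 0.91). Without the second YFP array these were 40 of 42 (medians -2.14 and 0.05) and 33 of 42 (medians -0.17 and 0.70). Across pairs the 2 changes had a Pearson r of 0.10 after anti-CD40, 0.24 for YFP control minus naive and 0.31 for LMP1 minus YFP control, given as a description over pairs that share arrays and, in part, hosts. Host and snoRNA values come from different probe sets, so they are set side by side as changes only.

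**Figure D3:**
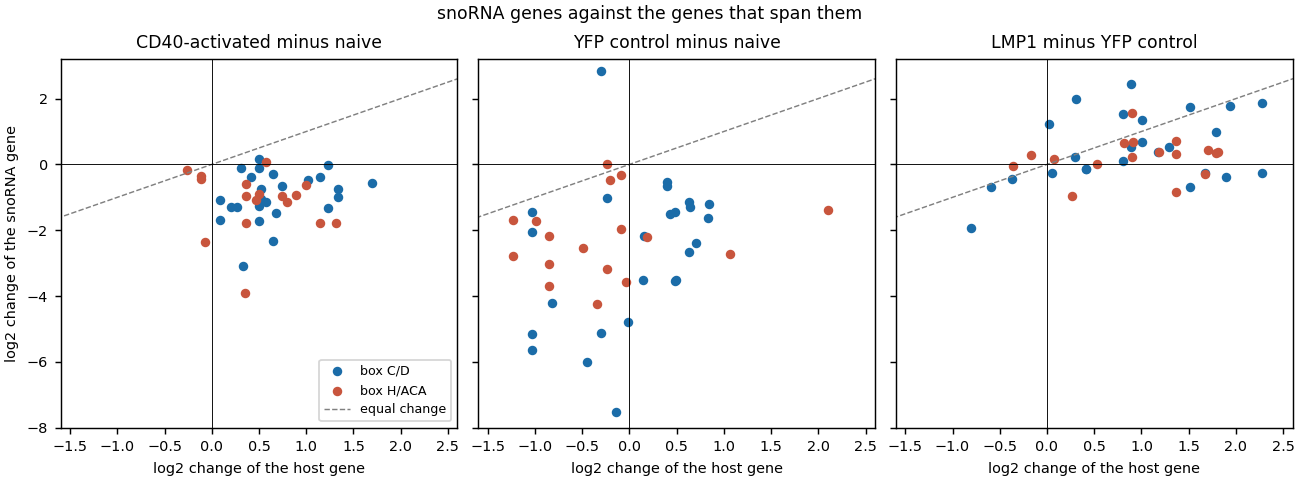
Each point is 1 of 42 pairs, with the log2 change of the host gene on the horizontal axis and of the snoRNA gene on the vertical axis, in 3 comparisons; blue is box C/D, red box H/ACA, and the dashed line marks equal change. After anti-CD40 41 of 42 points lie beneath the line and 36 to the right of 0 and below it, and LMP1 minus YFP control is the comparison with most points above 0.

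Single hosts show the size of this gap. Gnl3, which makes the nucleolar protein nucleostemin and was picked for its value, was at 8.29 and 8.15 on the naive and 9.89 and 9.95 on the CD40-activated arrays, a change of 1.70 ± 0.16 (adjusted p = 0.000138, limma), while its Snord69 changed by -0.56. Snhg3 rose by 1.31 ± 0.26 (adjusted p = 0.0074, limma) after anti-CD40 and by 1.82 ± 0.26 (adjusted p = 0.000819) in LMP1 cells, beside -1.79 and 0.38 for Snora73b; without either CD40-activated array its first call was lost. Srcap (0.35), Rc3h2 (0.34) and Tpt1 (-0.07) did not pass the test after anti-CD40, where the snoRNAs they hold changed by -3.91, -3.09 and -2.35. Rbmx, the host of Snord61, was at 8.93 and 8.89 on the naive and 8.98 and 8.55 on the YFP control arrays, a difference of -0.15 (adjusted p = 0.638, limma), beside -7.53 for the snoRNA. Snx5, the host of Snord17, fell by 0.81 in LMP1 cells (adjusted p = 0.0071), one of the 2 hosts called lower there with Rc3h2 (-0.60, adjusted p = 0.0295).

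A total of 9 hosts held 2 or 3 of the snoRNA genes, 19 in all. The genes of 1 host lie within the span of the same gene, with strand not checked, and those described here were chosen after their values were seen. For YFP control minus naive the members of a host differed by more than 1 in 8 of the 9 hosts, for LMP1 minus CD40-activated in 8, for LMP1 minus YFP control in 6 and for CD40-activated minus naive in 4. Without the second YFP array the number was 7 for YFP control minus naive and 4 for LMP1 minus YFP control. Wdr43, which makes a protein of small-subunit assembly, held the widest pair. Its Snord53 changed by 2.85 and its Snord92 by -5.14 between the naive and the YFP control, a span of 7.99, while Wdr43 itself was at 9.73 and 9.94 on the naive and 9.39 and 9.67 on the YFP control arrays.

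In Nop58, Snord11 was at 11.02 and 10.72 on the naive and 9.36 and 8.30 on the YFP control arrays, a change of -2.04, beside -5.63 for Snord70. In the ribosomal protein gene Rps3a1, Snord73a went from 10.78 and 10.54 on the naive arrays to 5.86 and 5.14 on the YFP control arrays, and Snord73b from 11.91 and 11.86 to 11.07 and 9.78. Their changes of -5.16 and -1.46 differed by 3.7. In Ncl after anti-CD40, Snora75 changed by -1.77 and Snord82, at 12.56 and 12.57 on the naive and 12.29 and 12.05 on the CD40-activated arrays, by -0.40. For YFP control minus naive the hosts themselves changed by -0.31 (Wdr43, not called), -1.04 (Nop58) and -1.03 (Rps3a1), less than the span between their snoRNAs. Without the second YFP array those spans were 8.53, 3.35 and 3.99, and Snord73b was at -0.82. Snord88a and Snord88c in 2410002F23Rik stayed within 0.68 of each other in all 4 comparisons.

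**Figure D4:**
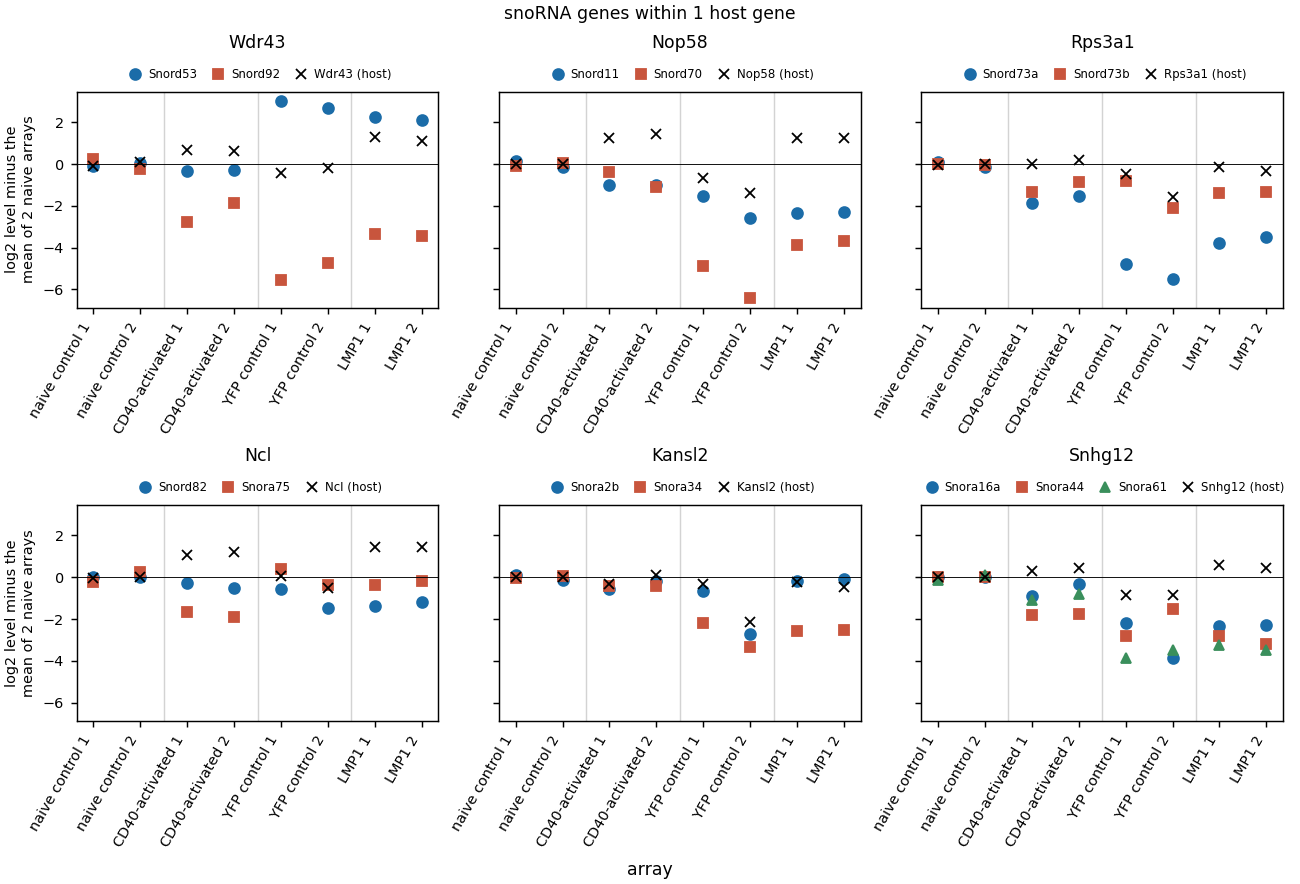
Each panel is a host gene and gives, for its snoRNA genes (coloured) and the host itself (crosses), the log2 level on each of the 8 arrays minus the mean of both naive arrays. In Wdr43 Snord53 lies above 2 and Snord92 below -3 on all 4 YFP and LMP1 arrays, and in Nop58 and Rps3a1 a single snoRNA of the pair lies lowest there.

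Most measured mRNAs of the core particle proteins rose in both activated groups, by the brightest probe set of each gene. Of the box C/D core, Nop58 rose by 2.28 ± 0.22 (adjusted p = 0.000101, limma) in LMP1 cells and by 1.34 ± 0.22 (adjusted p = 0.00301) after anti-CD40, and Nop56 by 1.79 ± 0.16 and 0.75 ± 0.16 (adjusted p = 5.28e-05 and 0.00933). Fbl and Snu13 were not analysed here. Of the box H/ACA core all 4 genes rose in LMP1 cells, Nhp2 by 1.85, Gar1 by 1.64, Dkc1 by 1.52 and Nop10 by 0.73. After anti-CD40 Dkc1 rose by 1.45, Nhp2 by 1.32 and Nop10 by 0.59, and Gar1 was at 0.55 without passing the test (adjusted p = 0.0665). The call of Nop10 after anti-CD40 (adjusted p = 0.0351) was lost without any single LMP1, naive or CD40-activated array, and that of Nop56 without either CD40-activated array. Nop56 has 2 further probe sets that did not follow the brightest one used here after anti-CD40. One was at 12.55 and 12.73 on the naive and 9.43 and 9.50 on the CD40-activated arrays, and the other at 8.01 and 7.88, and 6.92 and 7.24. In LMP1 minus YFP control they were at 0.045 and 3.035, beside 1.785 for the brightest. In YFP control minus naive they were at -4.89 and -2.785, beside -0.45.

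Factors that assemble the particles went the same way. Of 12 measured (13 listed), 11 rose in LMP1 cells with a median of 1.30, and 8 after anti-CD40 with a median of 0.80, where 14.8% and 10.9% of all probe sets were called higher. Ruvbl2, an ATPase of the assembly complex, rose by 2.17 and 0.81, and Nolc1, a nucleolar chaperone of both particle classes, by 1.66 and 1.34. Of 6 genes for release and trimming of intronic snoRNAs, 4 rose in LMP1 cells (median 0.89) and 3 after anti-CD40 (median 0.41), with none lower, against the same 14.8% and 10.9%. Dis3, a catalytic exosome subunit, rose by 1.68 and 1.21, whereas Dbr1, the lariat debranching enzyme, rose by 1.57 in LMP1 cells and was at 0.26 after anti-CD40 without passing the test. Xrn2, a nuclear exonuclease, changed by 0.17 and 0.11 and was not called.

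Long noncoding host genes, whose spliced transcripts have little coding use, were listed as 18 genes, 16 of them measured. In LMP1 cells 11 rose and none fell (median 1.53), led by Snhg15 (2.70) and Snhg1 (2.30), where 23.0% of all probe sets were called. After anti-CD40 4 rose, with Snhg15 (1.32) and Snhg3 (1.31) first, and 2 fell, Snhg20 by 0.94 and Snhg17 by 0.84, where 17.5% were called. In the YFP control 8 were lower and 3 higher than in the naive control, with a median of -0.48, the lowest being Snhg5 (-1.56), where 18.7% were called. The Snhg17 call after anti-CD40 was lost without either naive array or the second CD40-activated array. Snhg17 has 2 further, dimmer probe sets, with changes of 0.41 and -0.67 after anti-CD40 that were not called.

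Other short RNAs on the arrays were set beside the family. The small Cajal body RNAs, relatives of the snoRNAs that guide modification of spliceosomal RNAs, had 6 probe sets of 5 genes. In the YFP control all 6 were lower than in the naive control (median -2.33) and after anti-CD40 5 of 6 (median -2.09), where 7.8% and 6.59% of all probe sets were called lower, while none was called between LMP1 and YFP control. Scarna10 was at 12.49 and 12.31 on the naive, 10.69 and 10.87 on the CD40-activated, 8.19 and 7.06 on the YFP control and 7.63 and 7.29 in LMP1 cells. Rnu3a, a gene of the U3 RNA that acts in small-subunit processing, was at 12.19 and 12.39, 9.50 and 9.63, 8.37 and 8.33, and 9.42 and 8.08. Both had the naive arrays highest, as most of the family did.

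Not every short RNA did so. The polymerase III transcript Rn7sk stayed between 13.08 and 13.54 on all 8 arrays. Terc, the telomerase RNA and itself of the H/ACA type, was at 8.64 and 8.77 on the naive, 7.48 and 7.59 on the CD40-activated, 11.61 and 10.17 on the YFP control and 11.69 and 11.68 in LMP1 cells. It was 2.19 ± 0.36 higher in the YFP control than in the naive control (adjusted p = 0.00304, limma), the direction of Snord53. The 446 probe sets of miRNA genes had medians between -0.13 and -0.12 in all 4 comparisons, beside the family's 0.33, -0.96, -1.20 and -2.22 in LMP1 minus YFP control, CD40-activated minus naive, LMP1 minus CD40-activated and YFP control minus naive. Their median level was 4.22 to 4.39, and 328 to 344 of them lay below the median of an array, so most had little signal to lose. In YFP control minus naive 43 were called higher and 67 lower (24.7%, against 18.7% of all probe sets). Their flat medians thus do not show that miRNA genes kept their levels.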

How the data were processed

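Total RNA (TRIzol) was labelled with the Affymetrix WT PLUS kit, per the labels. The authors deposited log2 values; RMA and the package oligo are named in the submitters' processing notes, without versions. Background correction, build and handling of repeated probes are not given in the sources used here. Of 25349 probe sets, 22225 have 1 gene symbol, 616 several and 2508 none in the platform annotation; 18 repeats with identical values of the same symbol were dropped (1 of them for Snora19), leaving 22207. Another 4 probe sets pair a snoRNA with a further symbol and were left out.

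The values were fitted with limma 3.58.1 in R 4.3.3 (lmFit, eBayes) as 4 group means over 8 arrays (residual df 4, prior df 5.75), with Benjamini-Hochberg adjustment over all probe sets. The labels call the arrays biological replicates; p-values measure the spread between these samples, and 2 arrays a group limit the precision. On simulated data of LMP1 minus YFP control over 22207 probe sets, 34 of 100 changes of 1 and 84 of 100 of 2 (log2) were called, and 4 of 22007 unchanged probe sets. The simulation used normal noise with 1 spread per probe set averaged over the groups, and few probe sets changed. Its shares therefore do not carry over to the real data or to this family, whose YFP control replicates lay further apart.

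A host is the gene that spans a member in the RefSeq gene table. The table gives no strand, so 6 members with several spanning genes were left out, and the strand of single spanning genes was not checked. Another 12 members have a host not analysed here, 1 an unnamed model and 2 none. Of several probe sets of a host or listed gene the brightest was used. Members, lists (7 gene lists and 6 marker lists) and the naming rule were chosen with earlier results of these data known. Named are, per comparison, up to 6 called members with the highest and 6 with the lowest change whose arrays do not overlap, the listed precursor-processing snoRNAs, hosts of named members, core proteins, and the 3 highest and lowest of other lists; other names were chosen after their values were seen. Alternatives were robust eBayes with a trend, a fit of only the 2 groups compared, no dim probe sets (lowest 25 percent), median centring, quantile normalization within each set, 1 probe set per symbol, the replicate number as a block, and each of the 8 arrays left out. A planned search for C and D boxes was not made, as no member's sequence was given.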

Additional observations from a re-analysis of the deposited data

Results flagged for a closer look

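The results below stood out because the LMP1 response (LMP1 minus YFP control) and the CD40 response (CD40-activated minus naive control) differed when the difference itself was tested in the joint limma fit, at an adjusted p under 0.05 over 22207 probe sets. Values are the LMP1 response minus the CD40 response on the log2 scale. For members of the family they are a description.

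Among box C/D genes the differences were 4.07 for Snord92, 3.21 for Snord73a, 3.04 for Snord72, 2.95 for Snord58b, 2.61 for Snord70, 2.6 for Snord42b, 2.45 for Snord43 and 2.41 for Snord90. Smaller ones were 2.26 for Snord15a, 2.23 for Snord85, 1.87 for Snord83b and 1.04 for Snord23. Among box H/ACA genes they were 2.94 for Snora30, 2.6 for Snora68, 2.52 for Snora31, 2.17 for Snora73b, 1.80 for Snora41 and 1.78 for Snora7a. The remaining ones were 1.49 for Snora75, 1.44 for Snora21, 1.38 for Snora20, 1.30 for Snora47 and 1.29 for Snora61. In Snord43 the CD40 response was -0.01 and the LMP1 response 2.44, whereas in Snora30 both were below 0, at -3.91 and -0.97.

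Other short RNAs showed the same direction, with 3.13 for Rnu3a, 3.08 for Scarna8, 2.07 for Scarna6, 2.07 and 1.83 for both probe sets of Scarna17, and 1.97 for Terc (1.25 without the second YFP array). Particle proteins and their helpers did too, with 1.36 for Ruvbl2, 1.31 for Dbr1, 1.10 for Gar1, 1.06 for Znhit3, 1.04 for Nop56 and 1.04 for Parn. Of 16 measured long noncoding hosts 8 were called, all above 0, where 8.29% of all probe sets were called. Among them were Snhg1 (1.84), Snhg5 (1.66), Snhg17 (1.44), Snhg15 (1.38), Snhg7 (1.11) and Snhg12 (1.005). The host gene 1110038B12Rik was also called, at 0.925. Of the protein-coding hosts, Snx5 (-1.30) and Rc3h2 (-0.93) went the other way.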

How the results depend on the processing

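For 270 named changes, 1676 of 1749 values under settings that kept all arrays of the groups compared kept call and direction, 42 lost the call, 31 gained it and none reversed. With 1 array left out, 1917 of 2160 kept both, 183 lost the call, 59 gained it and 1 reversed: Snord49b in LMP1 minus YFP control, between -0.84 and 0.56. With only the groups compared in the fit, counts moved to 11 (box C/D, LMP1 minus YFP control) and 2 (box H/ACA), and for hosts to 17 (LMP1 minus CD40-activated) and 2 (YFP control minus naive), on fewer arrays. With 1 array left out the box C/D counts ran from 9 to 30 (LMP1 minus YFP control), 12 to 29 (CD40-activated minus naive), 19 to 33 (LMP1 minus CD40-activated), 32 to 38 (YFP control minus naive) and 6 to 28 (difference of responses). The box H/ACA counts ran from 1 to 9, 7 to 17, 6 to 14, 14 to 17 and 5 to 18, and the host counts from 15 to 26, 5 to 20, 2 to 15 and 5 to 14. The share of all probe sets called also rose or fell with the array left out, so these counts do not show changes of the family alone. The box C/D median of LMP1 minus YFP control ran from -0.24 to 0.73, and the cause was not tested. Arrays of the same replicate number showed little shared deviation (same-number correlations of deviations from the group means -0.10 to 0.08). Over mostly dim probe sets this cannot settle whether they were prepared together. With the replicate block box C/D counts were 18, 16, 29, 37 and 14 and box H/ACA counts 5, 14, 12, 17 and 11, and host counts 19, 12, 10 and 8, all within 1.5 times the main ones. Quantile normalization within a set was not run for comparisons that span both sets. Dim signal limits Snord91a, at 3.27 to 5.26 on all arrays, and also genes that were low in the YFP control. Of the 42 box C/D genes, 8 lay below the median of all probe sets on the first YFP control array and 14 on the second. Snord58b, Snord1b, Snord72 and Snord70 were among them on both arrays. On the second, Snord61, Snord58b, Snord1b, Snord70, Snord72 and Snord37 lay between 3.56 and 3.73, where that median was 5.72. The sizes of their changes against the YFP control are less certain for this reason.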

Other observations

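Genes that the annotation calls snoRNA under other symbols were also on the arrays, with 6 probe sets. AF357399 was at 9.93 and 10.14 on the naive, 8.12 and 8.52 on the CD40-activated, 6.44 and 6.78 on the YFP control and 7.56 and 7.52 on the LMP1 arrays, the order of groups most frequent in the family. Gm12238 was at 8.72 and 9.21, 8.29 and 8.57, 6.08 and 4.94, and 7.13 and 7.44. Gm26504 ran the other way, at 5.34 and 5.30 on the naive, 5.72 and 5.46 on the CD40-activated, 8.30 and 8.91 on the YFP control and 5.74 and 6.16 on the LMP1 arrays. AF357426 stayed between 1.99 and 2.52 on all 8 arrays.

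Of the order of group means, 32 of the 63 family genes had naive over CD40-activated over LMP1 over YFP control, and 16 had naive over CD40-activated over YFP control over LMP1. The other 15 genes spread over 11 further orders. How often each order occurred over all probe sets was not counted.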
